A study of Mus musculus with 4 samples.

Results

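Chemokine receptors are the G protein-coupled receptors that steer leukocytes along gradients of chemokines. The 9 described here are Ccr1, Ccr2, Ccr6, Ccr7, Ccr9, Cxcr3, Cxcr4, Cx3cr1 and Xcr1. They were found by matching the table's Ensembl identifiers to these symbols, and 9 of 9 were among the 17300 genes of the table. Total RNA of dendritic cells sorted from mouse spleen was sequenced in 2 KO and 2 WT libraries, called KO A, KO B, WT 1 and WT 2. The labels give the genotype only as KO or WT and the KO titles as EKO; the series title concerns Siglec-E, an inhibitory receptor of myeloid cells for sialic acid. Strain, sex, age, treatment, the gates of the sort, and whether samples came from separate animals are not stated by the labels. They do not explain the word Allo either, which opens the column names of both groups. All p-values therefore rest on the spread between these libraries, which for the WT pair may not be a spread between animals.

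Binding of a chemokine switches on inhibitory G proteins inside the cell, which leads to changes of the cytoskeleton and of integrins, and the receptor is then silenced by kinases and arrestins. In the spleen, different dendritic cells carry different receptors: Xcr1 marks conventional DC1, Ccr9 is known from plasmacytoid dendritic cells, Ccr6 from part of the conventional DC2, and Ccr7 guides mature cells into T cell zones. Ccr1, Ccr2 and Cx3cr1 are also abundant on monocytes and macrophages, Cxcr3 on NK and T cells, and Cxcr4 on almost all leukocytes.

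Values are the deposited log2 expression values, in which low levels are compressed, and normalised counts obtained by undoing that transform. Pairs of values are given for KO A and then KO B, and for WT 1 and then WT 2. Siglece, the gene of Siglec-E, checks the labels: it had 101 and 111 counts in the KO libraries, and 859 and 666 in the WT libraries. The libraries differed in ways that touch the receptors. Of 17 pan dendritic cell markers, all in the table and none at the lowest value, 12 were past the threshold and lower in KO, 0 were higher, and their summed counts were 393033 to 421313 in KO and 553569 to 566698 in WT. Summed monocyte markers were 209661 to 223767 in KO and 121198 to 142121 in WT, with 9 of 18 tested markers higher and 0 lower. Lyz2 gave 32.3% of this sum. Summed NK cell markers were 35900 to 41392 in KO and 22115 to 22340 in WT, with 15 of 19 higher and 0 lower. Macrophage markers summed to 32116 to 41005 in KO and 19073 to 21625 in WT, with 5 of 16 tested markers higher and 0 lower. Immediate early genes, which respond within minutes to stimulation or to tissue handling, summed to 191106 to 219457 counts in KO and 39774 to 82255 in WT, with 19 of 24 higher and 0 lower. Summed neutrophil markers were 259935 to 279839 in KO, 240905 in WT 1 and 92837 in WT 2, which stood apart, with 2 of 15 tested markers higher and 0 lower in KO. KO A held far less RNA of the Y-linked gene Ddx3y, 64.5 counts against 3102 to 3979 in the other libraries. KO A and KO B were therefore not repeats of the same material, and the spread between them includes this difference. In bulk samples, fewer cells of a type and less RNA per cell cannot be told apart.

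Between the groups of libraries, 2 of the receptors were higher in KO and 1 was lower. Ccr1 and Cxcr4 were higher by 0.80 and 0.72 log2 units, and Ccr6 was lower by 0.75. The other 6 receptors were not past the threshold, an adjusted p of 0.05 over the 11864 genes tested in limma, and they ranged between a difference of -0.37 for Xcr1 and 0.46 for Cx3cr1. Among all genes tested, 6.93% were called, 4.69% higher and 2.23% lower in KO, which is 557 higher and 265 lower genes (366 higher and 282 lower with quantile normalization). The median difference of the 9 receptors was 0.25, against -0.0017 over all genes tested. In 5 of the 9 receptors the KO and WT libraries did not overlap, 3 with KO above WT (28.1% of all genes tested) and 2 with KO below WT (28.2%), together a share near the 56.2% of all genes tested.

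The 3 calls needed both KO libraries. Without KO A the adjusted p was 0.0545 for Ccr1, 0.0619 for Cxcr4 and 0.0665 for Ccr6, at differences of 1.01, 0.73 and -0.69 log2 units. Without KO B it was 0.101, 0.0857 and 0.0851, at differences of 0.59, 0.71 and -0.82. Over all genes, limma called 0 without KO A, where 2508 had an unadjusted p under 0.05, and 3 without KO B, where 2448 had one. Without WT 1, Cx3cr1 (adjusted p = 0.0221) and Xcr1 (adjusted p = 0.0323) passed as well.

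**Figure D1:**
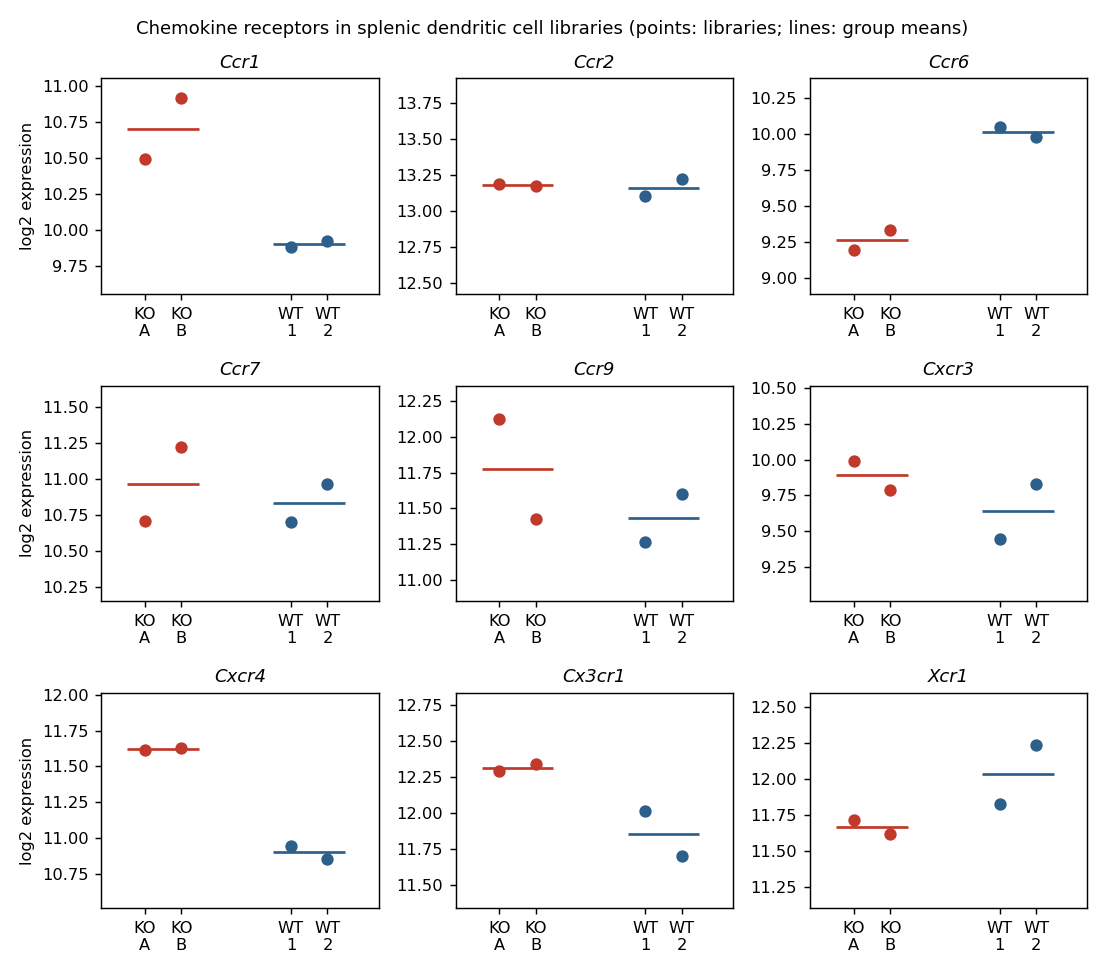
Log2 expression (vertical axes, one scale per panel) of the 9 chemokine receptors in each library, with KO in red at the left and WT in blue at the right; points are libraries and lines are group means. Ccr1, Cxcr4 and Cx3cr1 lay above both WT libraries in both KO libraries, Ccr6 and Xcr1 lay below, and the other 4 overlapped.

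**Figure D2:**
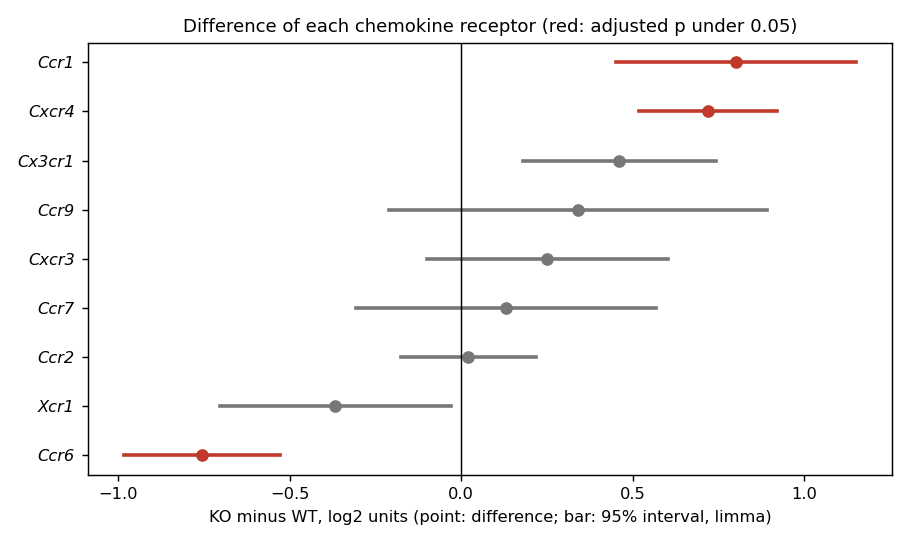
Difference of KO minus WT in log2 units (horizontal axis) for each receptor, with 95% intervals from limma for 2 libraries in each group; red marks an adjusted p under 0.05. Ccr1 and Cxcr4 lie at 0.80 and 0.72 and Ccr6 at -0.75, while the interval of Ccr2 runs between -0.18 and 0.22.

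The sequences before the transcription starts of the 3 receptors that passed the threshold are shown because these are the genes whose RNA differed between the groups. They are the 250 bases before each start in RefSeq's annotation of GRCm38.p6, an older build than the GRCm39 named by the submitters, 5′ to 3′ on the gene's strand. Capitals mark matches to 6 motifs searched on both strands: AP-1 as TGANTCA, the cyclic AMP response element as TGACGTCA, NF-kB as GGGA and CC with any 4 bases between them, PU.1 as GAGGAA, the GC box as GGGCGG and the TATA box as TATAAA. The window of Cxcr4 is chr1:128592300-128592549 (minus strand), that of Ccr1 chr9:123968693-123968942 (minus strand), and those of the 2 starts of Ccr6 chr17:8235793-8236042 and chr17:8242276-8242525 (plus strand).
Cxcr4: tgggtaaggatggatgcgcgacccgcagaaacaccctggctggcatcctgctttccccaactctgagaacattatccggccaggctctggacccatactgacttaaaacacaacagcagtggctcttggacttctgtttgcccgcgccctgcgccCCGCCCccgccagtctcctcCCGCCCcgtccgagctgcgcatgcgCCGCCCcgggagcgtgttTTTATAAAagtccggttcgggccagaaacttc
Ccr1: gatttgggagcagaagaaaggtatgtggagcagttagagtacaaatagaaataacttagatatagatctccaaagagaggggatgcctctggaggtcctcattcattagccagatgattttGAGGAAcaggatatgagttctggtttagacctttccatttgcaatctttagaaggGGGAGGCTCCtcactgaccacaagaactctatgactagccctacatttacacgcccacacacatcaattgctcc
Ccr6, first start: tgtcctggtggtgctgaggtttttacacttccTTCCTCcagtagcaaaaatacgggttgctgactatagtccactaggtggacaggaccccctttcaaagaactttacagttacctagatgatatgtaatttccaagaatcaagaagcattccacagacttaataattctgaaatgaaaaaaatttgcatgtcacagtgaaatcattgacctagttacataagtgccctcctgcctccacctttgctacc
Ccr6, second start: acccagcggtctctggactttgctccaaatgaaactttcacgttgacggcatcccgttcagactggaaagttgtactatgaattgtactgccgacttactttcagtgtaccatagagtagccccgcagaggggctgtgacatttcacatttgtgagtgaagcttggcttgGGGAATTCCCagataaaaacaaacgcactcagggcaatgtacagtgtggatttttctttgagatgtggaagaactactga
The stretch before Cxcr4 held 3 GC boxes and overlapping TATA matches that begin 32 and 30 bases before the start, and 61.2% of its bases were G or C, against 43.6% for Ccr1 and 41.2% and 46.0% for Ccr6. That of Ccr1 held a PU.1 match 129 bases and an NF-kB match 74 bases before the start. Ccr6 had a PU.1 match before its first start and an NF-kB match, GGGAATTCCC, before its second. Windows were found for 8 of the 9 receptors. AP-1 and the cyclic AMP response element had 0 matches in these, and 6.73% and 1.56% of 32536 windows of the same length held them. GC boxes were in 33.0% of all windows, TATA boxes in 12.3%, PU.1 matches in 23.4% and NF-kB matches in 17.7%. A match to these letters is a description and not a binding site.

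Ccr1, a receptor for Ccl3, Ccl5, Ccl6 and Ccl9 that monocytes, neutrophils and some dendritic cells use in inflammation, had log2 values of 10.49 and 10.92 in the KO libraries, and 9.88 and 9.93 in the WT libraries. In counts these were 965 and 1443 in the KO libraries, and 493 and 518 in the WT libraries. Both KO libraries lay above both WT libraries, and the KO libraries differed from each other by more than the WT libraries did. Ccr1 rose by 0.80 log2 units (SE 0.145, 95% interval 0.45 to 1.15, adjusted p = 0.0323), and its mean counts were 2.38-fold higher in KO. Its rise was larger in proportion than that of the summed monocyte markers in KO B, where Ccr1 was at 285% of the WT mean and the markers at 159%, and closer to it in KO A, at 191% and 170%. Other marker sums were higher in the same libraries. Basophil markers summed to 5608 and 8121 counts in the KO libraries, and 2470 and 1821 in the WT libraries, with 4 of 7 tested markers higher and 0 lower. Erythroid markers summed to 62181 and 87561 counts in the KO libraries, and 10246 and 30412 in the WT libraries, with 8 of 16 higher and 0 lower. Ccr1 ranked the 4 libraries in the same order as the erythroid and the immediate early sums. The part of these cells, of monocytes and of the early response in the result was not tested. The tested genes with the most similar pattern over the 4 libraries, by Euclidean distance of log2 values less their own mean, were C1qa (0.0429), Arrdc3 (0.0493) and Txk (0.0631).

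Ccr2, the receptor for Ccl2 that lets monocytes and dendritic cell precursors leave the bone marrow, did not separate the groups. It had 8831 and 8748 counts in the KO libraries, and 8281 and 9046 in the WT libraries. The KO values lay between the WT values. The difference was 0.02 log2 units (SE 0.0823, 95% interval -0.18 to 0.22, adjusted p = 0.908). Summed monocyte markers were at 170% and 159% of the WT mean in KO A and KO B, where Ccr2 was at 102% and 101%. These markers did not move as one. Of 18 tested, 9 were higher, among them the immediate early gene Nr4a1, and 9 were not past the threshold. The 2 with negative differences were Ms4a4c (-0.12 log2 units) and Ms4a6c (-0.08). The part of monocytes in the values of Ccr2 was not tested. Of the 31-base words in its transcripts, 3.41% also occur in other genes.

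Cx3cr1, the receptor for fractalkine on patrolling monocytes, macrophages and part of the dendritic cells, had 4499 and 4680 counts in the KO libraries, and 3623 and 2821 in the WT libraries. Both KO libraries were above both WT libraries, by 0.46 log2 units on average (SE 0.117, 95% interval 0.18 to 0.74), and the difference was not past the threshold over all genes (adjusted p = 0.0668). It passed without WT 1, at 0.62 (adjusted p = 0.0221). In the same libraries the summed monocyte markers were at 170% and 159% of the WT mean in KO A and KO B, and Cx3cr1 at 140% and 145%. Over its whole span, introns included, Cx3cr1 overlaps genes on both strands, Wdr48 and Csrnp1 among them. Overlap of exons was not examined, and whether the authors' counting used strand is not stated by the labels.

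Cxcr4, the receptor for Cxcl12 that holds leukocytes in bone marrow and lymphoid tissue, had the smallest standard error among the 3 called receptors. It had 2629 and 2669 counts in the KO libraries, and 1484 and 1367 in the WT libraries. Every KO library was above every WT library, with a gap far wider than the distance between replicates. Cxcr4 rose by 0.72 log2 units (SE 0.0837, 95% interval 0.52 to 0.92, adjusted p = 0.0147), and its mean counts were 1.86-fold higher in KO. None of its 31-base words occurs in another gene. The immediate early genes, which were higher in the same libraries, ran differently within WT: their sum was at 65.2% of the WT mean in WT 1 and 135% in WT 2, where Cxcr4 was at 104% and 95.9%. Cxcr4 ranked the 4 libraries in the same order as 4 of 14 list sums, those of conventional DC2, NK cell, macrophage and basophil markers. The part of the early response and of these cells in the rise of Cxcr4 was not tested. The closest patterns belonged to Thbd (distance 0.0569), Mpp1 (0.0815) and Dusp6 (0.0856).

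Ccr7, the receptor for Ccl19 and Ccl21 that mature dendritic cells use to reach T cell zones, varied within both groups. It had 1185 and 1898 counts in the KO libraries, and 1182 and 1512 in the WT libraries. KO A and WT 1 were almost equal and KO B was the highest, so the groups overlapped. The difference was 0.13 log2 units (SE 0.182, 95% interval -0.31 to 0.57, adjusted p = 0.710). Without KO B it was -0.13 and without KO A 0.39. Other markers of mature or migratory dendritic cells ran lower in KO: 5 of 18 tested were past the threshold and lower and 0 higher, and their summed counts were 30990 and 37842 in the KO libraries, and 45166 and 46494 in the WT libraries. For each 1000 counts of these markers there were 38.2 and 50.2 counts of Ccr7 in the KO libraries, and 26.2 and 32.5 in the WT libraries.

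Xcr1, the receptor for Xcl1 by which conventional DC1 meet NK and CD8 T cells, had 2860 and 2630 counts in the KO libraries, and 3128 and 4315 in the WT libraries. Both KO libraries were below both WT libraries, while the WT libraries lay further apart than the KO libraries. The difference was -0.37 log2 units (SE 0.140, 95% interval -0.70 to -0.03) and did not pass over all genes (adjusted p = 0.171). It was -0.57 without WT 1 (adjusted p = 0.0323) and -0.16 without WT 2. The other 18 conventional DC1 markers had summed counts of 140735 and 128296 in the KO libraries, and 160630 and 198670 in the WT libraries, with 5 lower, 1 higher and 12 not past the threshold. Xcr1 and this sum ranked the 4 libraries in the same order. For each 1000 marker counts there were 20.3 and 20.5 counts of Xcr1 in the KO libraries, and 19.5 and 21.7 in the WT libraries. Relative to this sum, of which 40.5% came from Wdfy4, the groups overlapped.

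Ccr9, the receptor for Ccl25 that is known from plasmacytoid dendritic cells and from homing to the gut, was high in a single library. It had 3953 and 2249 counts in the KO libraries, and 1969 and 2605 in the WT libraries. KO A was the highest, and KO B lay between the WT libraries. The difference was 0.34 log2 units (SE 0.229, 95% interval -0.21 to 0.89, adjusted p = 0.415), and -0.01 without KO A. The plasmacytoid marker sum had the same order of libraries, with 85812 and 59490 counts in the KO libraries, and 52862 and 62701 in the WT libraries; 1 of its 17 markers rose, 1 fell and 15 were not past the threshold. In KO A, Ccr9 was at 173% and the marker sum at 149% of the WT mean. Over its whole span, introns included, Ccr9 overlaps genes on the opposite strand, Lztfl1 and Slc6a20a among them. Overlap of exons was not examined, so its counts may be uncertain if strand was not used in counting. Of the 31-base words in its transcripts, 3.12% also occur in other genes, and 2.32% occur in Gm17200.

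Ccr6, the receptor for Ccl20 found on part of the conventional DC2 and on B cells, was the only one of the 9 receptors past the threshold and lower. Its log2 values were 9.19 and 9.33 in the KO libraries, and 10.05 and 9.98 in the WT libraries. Its counts were 177 and 225 in the KO libraries, and 602 and 551 in the WT libraries. The groups were well apart and the replicates close. Ccr6 fell by 0.75 log2 units (SE 0.0946, 95% interval of the difference -0.98 to -0.53, adjusted p = 0.0180), and its mean counts were 2.86-fold lower in KO. On the scale of log2 of the count plus 1, which compresses low values less, the difference was -1.52 (adjusted p = 0.0236).

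Some markers of the cells that carry Ccr6 fell with it, while their sums did not. Esam and Clec4a4, both known from splenic conventional DC2, fell by 0.56 and 0.67 log2 units (adjusted p = 0.0250 and 0.0264), with count ratios of KO over WT of 0.371 and 0.447, against 0.349 for Ccr6. Klf4 and Tbx21, transcription factors of DC2 subsets that are also listed among the immediate early genes and the NK cell markers, rose by 1.19 and 0.42 (adjusted p = 0.0138 and 0.0498). Conventional DC2 markers summed to 75639 and 80114 counts in the KO libraries, and 70690 and 62866 in the WT libraries, with 2 of 15 tested markers higher and 2 lower; the marker with the most counts in this sum was Notch2, a receptor that other cells carry too. B cell markers summed to 23790 and 27641 counts in the KO libraries, and 24915 and 20741 in the WT libraries, with 1 of 13 tested markers higher and 0 lower, and 69.7% of the sum came from Ighm, the marker that rose. Cd22, an inhibitory receptor of B cells, had 1569 and 2767 counts in the KO libraries, and 4848 and 3019 in the WT libraries (adjusted p = 0.145). The part of these cells in the fall of Ccr6 was not tested. For each 1000 DC2 marker counts there were 2.34 and 2.81 counts of Ccr6 in the KO libraries, and 8.51 and 8.77 in the WT libraries. The closest patterns were those of Rtn1 (distance 0.0386), of the dendritic cell integrin Itgax (0.0722) and of Dexi (0.0755).

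Cxcr3, the receptor for the interferon-induced chemokines Cxcl9, Cxcl10 and Cxcl11, had 560 and 437 counts in the KO libraries, and 273 and 460 in the WT libraries. WT 1 was the lowest and the other 3 libraries were close, so the groups overlapped. The difference was 0.25 log2 units (SE 0.146, 95% interval -0.10 to 0.60, adjusted p = 0.346). NK cell markers, which were at 162% and 186% of the WT mean in KO A and KO B, hardly differed between WT 1 and WT 2 (101% and 99.5%), whereas Cxcr3 was at 74.5% in WT 1 and 126% in WT 2. T cell markers summed to 11720 and 9368 counts in the KO libraries, and 8280 and 8377 in the WT libraries, with 3 of 10 tested markers higher and 0 lower. Cxcr3 ranked the 4 libraries in the same order as 1 of 14 list sums, that of the plasmacytoid markers. The part of NK cells, T cells and plasmacytoid dendritic cells in the values of Cxcr3 was not tested.

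**Figure D3:**
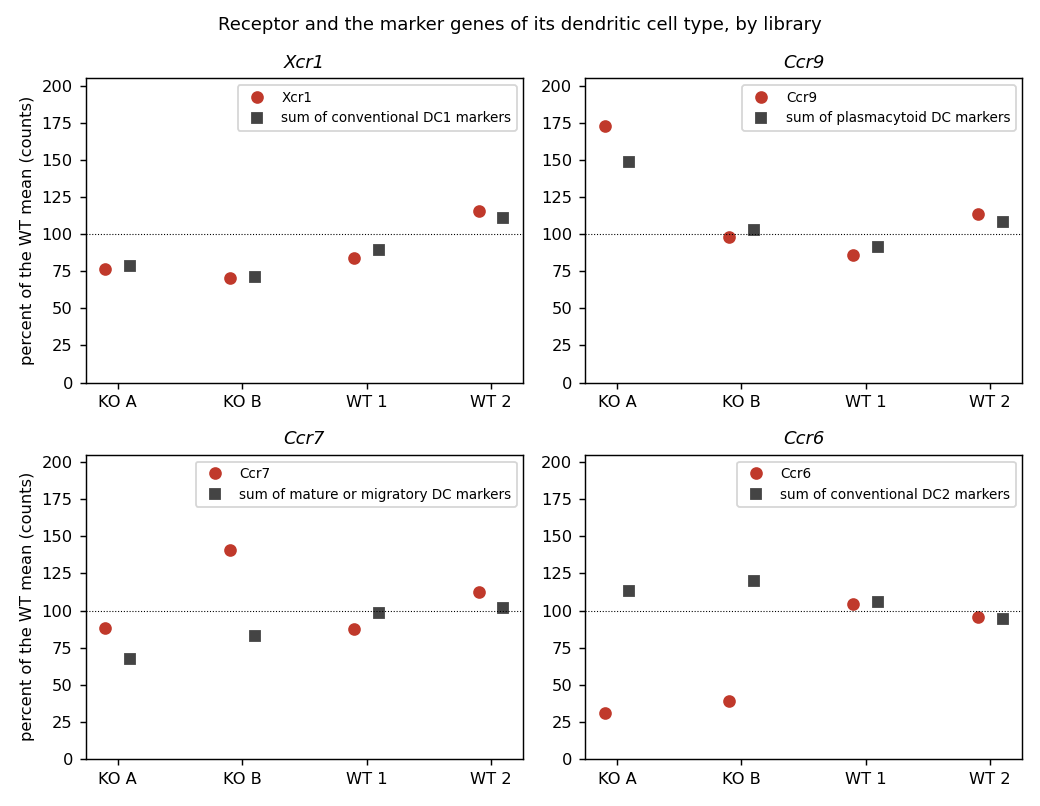
Counts of Xcr1, Ccr9, Ccr7 and Ccr6 (red circles) and summed counts of the markers of a dendritic cell type known to carry each (dark squares), as percent of the WT mean (vertical axis) in each library (horizontal axis). Xcr1 stays near its marker sum in all 4 libraries. Ccr9 lies above its sum in KO A, at 173% against 149%, and near it elsewhere. Ccr7 lies above its sum in both KO libraries, at 88.0% and 141% against 67.6% and 82.6%. Ccr6 lies far below its sum in both KO libraries, at 30.7% and 39.1% against 113% and 120%.

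Levels were compared between receptors per length, as counts per kilobase of the median protein-coding transcript in GENCODE M21. Ccr2 was the highest in both groups, with 2686 to 2712 in KO and 2543 to 2777 in WT. Cxcr4 came next, with 1943 to 1972 in KO and 1010 to 1096 in WT, followed by Cx3cr1 with 1199 to 1247 in KO and 752 to 965 in WT. Below it, the library ranges of Ccr9, Ccr7 and Xcr1 overlapped in WT, so that these could not be ordered there. In KO, Ccr9, with 749 to 1316, lay above Xcr1, with 591 to 642, while Ccr7 overlapped both. Cx3cr1 overlapped Ccr9 in both groups, and Xcr1 and Ccr7 in WT. Ccr6 was the lowest in KO, with 137 to 174, and ranked above Cxcr3 and Ccr1 in WT, with 426 to 465. Ccr1 was the lowest in WT, with 174 to 183, overlapping Cxcr3, and ranked above Cxcr3 and Ccr6 in KO, with 341 to 509. With merged exons as the length, Cxcr4 (1454 to 1476) ranked above Ccr2 (1294 to 1306) in KO. In WT, Xcr1 (702 to 969) then followed Ccr2 (1225 to 1338) and ranked above Cxcr4 (756 to 821), whose range it overlapped. Ccr9 moved down, while the lowest receptor of each group was as before.

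**Figure D4:**
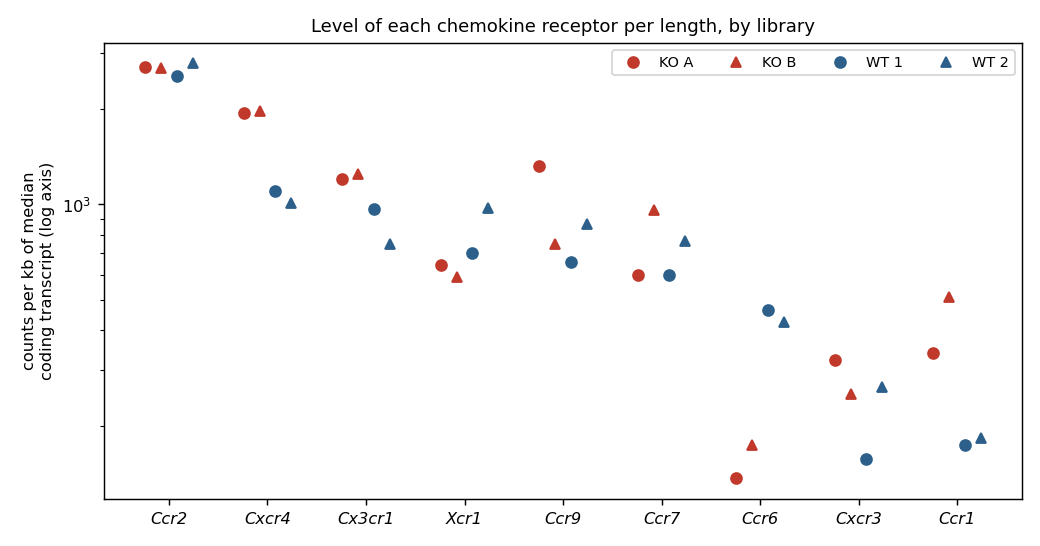
Counts per kilobase of the median coding transcript (vertical log axis) for each receptor, ordered by its WT mean, in the 2 KO libraries (red) and the 2 WT libraries (blue). Ccr2 is the highest in every library, and Ccr6 and Ccr1 exchange places at the low end, with 137 to 174 and 341 to 509 in KO against 426 to 465 and 174 to 183 in WT.

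Many chemokine receptor genes lie side by side on mouse chromosome 9. From Ccr9 to Ccr2 the protein-coding genes are, in order in RefSeq's GRCm38.p6, Ccr9, Fyco1, Cxcr6, Xcr1, Ccr1, Ccr1l1, Ccr3 and Ccr2. Only Ccr1 passed the threshold among the 7 of these 8 that are in the table. Its neighbour Xcr1 differed by -0.37 log2 units and its other neighbour in the table, Ccr3, the eotaxin receptor, by 0.35 (SE 0.180, adjusted p = 0.293). Ccr1 and Ccr3 share 0.606% of the 31-base words of Ccr1.

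Of 15 further chemokine receptors and atypical receptors, 11 were in the table and 5 were tested. Of these 5, 2 rose, 0 fell and 3 were not past the threshold, with a median difference of 0.35. Over all genes tested, 4.69% were higher and 2.23% lower. Cxcr2, the neutrophil receptor for Cxcl1 and Cxcl2, had 2051 and 2905 counts in the KO libraries, and 1152 and 879 in the WT libraries, and rose by 0.99 log2 units (SE 0.161, adjusted p = 0.0259). Its mean counts were 2.44-fold higher in KO. Of 15 tested neutrophil markers, 2 were past the threshold, both higher in KO, and 13 were not. The neutrophil sum was 279839 and 259935 counts in the KO libraries, and 240905 and 92837 in the WT libraries. Csf3r, the receptor for G-CSF, had 9754 and 17797 counts in the KO libraries, and 5172 and 5909 in the WT libraries (2.49-fold, adjusted p = 0.0440). Trem1, an activating receptor of neutrophils and monocytes, was 4.14-fold higher (adjusted p = 0.0147). The part of neutrophils in the rise of Cxcr2 was not tested. Ccrl2, a receptor that binds chemerin and does not signal, had 978 and 890 counts in the KO libraries, and 359 and 475 in the WT libraries, and rose by 0.71 log2 units (SE 0.107, adjusted p = 0.0227). Neither passed without KO A or without KO B (adjusted p between 0.0579 and 0.103).

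Ligands of the receptors were higher where they passed. Of 19 listed, 12 were in the table and 8 were tested. Of these 8, 5 rose, 0 fell and 3 were not past the threshold, with a median difference of 0.61. The share over all genes tested was 4.69% higher and 2.23% lower. Ccl3, a ligand of Ccr1, had 1426 and 1732 counts in the KO libraries, and 101 and 276 in the WT libraries, and rose by 1.82 log2 units (SE 0.183, adjusted p = 0.0147). Ccl4, an inflammatory chemokine closely related to Ccl3, had 1329 and 1296 counts in the KO libraries, and 72.3 and 370 in the WT libraries, and rose by 1.59 (SE 0.258, adjusted p = 0.0258). Mean counts were 8.37-fold higher in KO for Ccl3 and 5.94-fold higher for Ccl4, and the size of both rested on which WT library was used. For Ccl3 the ratio was 5.72 against WT 2 alone and 15.6 against WT 1 alone, and for Ccl4 3.55 and 18.2. With 1 library left out, the log2 differences ranged between 1.55 and 2.09 for Ccl3 and between 1.15 and 2.03 for Ccl4.

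Ccl5 and Ccl6, also ligands of Ccr1, rose by 0.63 (adjusted p = 0.0374) and 0.59 log2 units (adjusted p = 0.0384). Xcl1, the ligand of Xcr1 that NK and T cells make, had 321 and 337 counts in the KO libraries, and 67.0 and 164 in the WT libraries, a rise of 0.62 (SE 0.135, adjusted p = 0.0475). With quantile normalization Ccl5, Ccl6 and Xcl1 did not pass (adjusted p = 0.0563, 0.0629 and 0.0613). On log2 of the count plus 1, Ccl4 and Xcl1 did not pass (adjusted p = 0.0578 and 0.0757). Without WT 1, Ccl5 and Xcl1 did not pass (adjusted p = 0.0539 and 0.0878). None of the 5 passed without KO A or without KO B (adjusted p between 0.0549 and 0.178). Ccl5 is itself one of the NK cell markers counted above, and the part of NK cells in these results was not tested.

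Ccl9, Ccl25 and Cxcl9, ligands of Ccr1, Ccr9 and Cxcr3, were not past the threshold, at differences of 0.24, -0.08 and -0.14 (adjusted p = 0.135, 0.687 and 0.417). Ccl2, the ligand of Ccr2, was too low to be tested, with 97.1 and 112 counts in the KO libraries, and 4.71 and 26.0 in the WT libraries. Cxcl10, Cxcl11 and Cx3cl1 were too low as well, and their libraries overlapped between the groups.

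**Figure D5:**
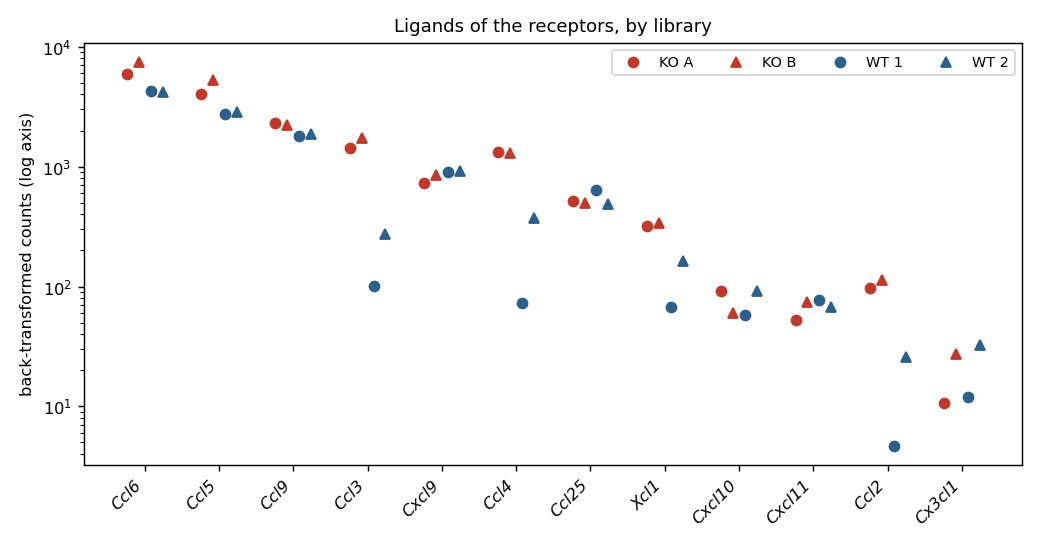
Back-transformed counts (vertical log axis) of the 12 ligands in the table, ordered by mean, in the 2 KO libraries (red) and the 2 WT libraries (blue). Ccl3 and Ccl4 lie between 1296 and 1732 in KO and between 72.3 and 370 in WT, while Cxcl9 and Ccl25 lie close together in all libraries.

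The genes that carry the signal of these receptors were called at a share near that of all genes tested, of which 4.69% were higher and 2.23% lower. Of 33 tested, which include G protein subunits, receptor kinases, arrestins and regulators of the cytoskeleton, 1 rose, 0 fell and 32 were not past the threshold, with a median difference of 0.05. The gene that rose was Rap1b, a small GTPase that activates integrins, which had log2 values of 13.71 and 13.74 in the KO libraries, and 13.34 and 13.23 in the WT libraries, a difference of 0.44 (SE 0.0818, adjusted p = 0.0342). Gnai2, the main inhibitory G protein of leukocytes, differed by 0.11 (SE 0.0838, adjusted p = 0.456). Grk3, a kinase that silences active receptors, and Ptk2b, a kinase activated by chemokines, differed by -0.29 and 0.36 (adjusted p = 0.106 and 0.0787).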

How the data were processed

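RNA of sorted splenic dendritic cells was sequenced with a stranded total RNA kit for small inputs, per the labels' protocols. Salmon 1.10.1, DESeq2 and GRCm39 are named in the submitters' processing notes; their roles, the annotation and any filter on genes are not stated there. The authors deposited log2 values for 17300 genes, scaled between libraries, with a shared lowest value of 8.04. Assuming that this is a variance-stabilized count of 0, the transform was undone to give normalised counts, which sum to between 29002408 and 30952251 per library; the depth in reads is unknown. KO column numbers differ from the KO titles, so these columns were used as the KO group only.

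Symbols came from GENCODE M21 (17289 identifiers matched, 11 did not). The 11864 genes whose mean exceeded the lowest value by 1 log2 unit or more were tested with limma 3.58.1 in R 4.3.3 (moderated, intensity trend, two-sided, Benjamini-Hochberg adjusted), checked on simulated data. All 9 receptors passed this filter. Named genes were the 9 receptors, further receptors and ligands past the threshold, Siglece, at most 4 genes past the threshold from each other list by smallest p, and for each called receptor the 3 genes of nearest pattern. Ccr3, Ccl2, Ccl9, Ccl25, Cxcl9, Gnai2, Grk3, Ptk2b, Cd22, Notch2, Ddx3y, Lyz2, Ms4a4c, Ms4a6c and Wdfy4 were named after their values were seen. Members and lists were chosen with earlier results of these data known. Alternatives were 2 other filters, quantile normalization, log2 of the count plus 1, no trend, and leaving out each library.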

Additional observations from a re-analysis of the deposited data

How the results depend on the processing

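Ccr1, Cxcr4 and Ccr6 kept their direction under every alternative run. They passed under each that kept both KO libraries, except that Ccr6 is not among the genes left by the filter of 2 log2 units, which leaves 2 receptors past the threshold. With 1 library left out, the receptors past the threshold numbered 0 to 5 and all genes past it 0 to 820: 0 receptors without KO A or KO B, 5 without WT 1 and 3 without WT 2. In these fits the lone library is assumed to vary like the other group. The ranges over libraries left out were 0.59 to 1.01 for Ccr1, 0.68 to 0.76 for Cxcr4, -0.82 to -0.69 for Ccr6, 0.30 to 0.62 for Cx3cr1, -0.57 to -0.16 for Xcr1 and 0.061 to 0.44 for Cxcr3. Signs turned for Ccr2 (-0.039 to 0.081, and -0.0069 with quantile normalization), Ccr7 (-0.13 to 0.39, with -0.0025 without WT 1) and Ccr9 (-0.0098 to 0.69), none of which was called in any fit; the cause was not tested. The level per kilobase with merged exons was chosen after seeing the data. No paired analysis was possible because the KO columns do not carry the replicate numbers of the KO titles. The unknown read depth and 2 libraries in each group limit the precision.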
